A study of Mus musculus with 6 samples.

Results

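The unfolded protein response and the integrated stress response were followed in mouse bone marrow pre-B cells through 38 named genes, which were grouped by their known roles in the ATF6, IRE1, PERK and ER-associated degradation (ERAD) arms. Of the 38 genes, 37 had an array probe set of their own among 19733 genes tested, and Mbtps2 shared its probe set with Yy2. The cells carried floxed alleles of Ppp2r1a, which encodes the scaffold on which the phosphatase PP2A is assembled, and had been transduced with BCR-ABL1, the fusion kinase of a form of B cell acute lymphoblastic leukaemia. In 3 samples they had then received Cre for deletion of Ppp2r1a, and in 3 samples an empty vector (EV). The labels give the EV samples as wild type, although the floxed alleles and BCR-ABL1 are shared by all 6 samples. The sources used here do not give age, sex, the promoter driving Cre, the time after transduction or whether cells were selected. No sample had Cre in cells without floxed alleles, so effects of Cre and of Ppp2r1a loss cannot be told apart, and nothing says that the 3 samples of a group came from separate cultures or mice, so the p-values measure only the spread between these arrays.

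The endoplasmic reticulum (ER) folds secreted and membrane proteins, and 3 membrane sensors, ATF6, IRE1 and PERK, respond when unfolded proteins build up there. ATF6 and the IRE1 target XBP1 are transcription factors that raise chaperones and ERAD genes, while PERK phosphorylates the translation factor eIF2alpha. That phosphorylation, which other kinases carry out under amino acid or heme shortage, lowers general translation and favours translation of ATF4, and this shared pathway is called the integrated stress response. In B cells the XBP1 branch is known for its part in building the secretory plasma cell.

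Each gene was measured as a log2 expression level made with RMA, 1 value per array, and a change is the Cre mean minus the EV mean. Each comes with its standard error (SE) from limma and with p-values adjusted by the Benjamini-Hochberg method over all 19733 genes. A gene was said to rise or fall at an adjusted p below 0.05. Ppp2r1a read 7.12, 6.98 and 6.92 in Cre and 9.06, 9.05 and 9.06 in EV, a change of -2.05 (SE 0.07; limma adjusted p = 1.2e-05). Across all genes, 3.49% passed (1.35% higher and 2.14% lower in Cre). Levels lay between 1.22 and 13.47 with array medians of 5.22 to 5.27, and the number of arrays limits the precision.

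Only a few of the stress response genes changed in the Cre cells, and the ER chaperones were not among them. Edem1, which hands misfolded glycoproteins to ERAD, rose 1.85-fold, Atf6 1.35-fold and Syvn1, the ubiquitin ligase HRD1 of ERAD, 1.23-fold, while Atf5, a transcription factor of the integrated stress response, fell 1.26-fold. Of the 37 measured genes, 3 rose, 1 fell and 33 did not pass in limma, that is 10.8% called against 3.49% of all genes. The list was drawn up with earlier results of these data known, so this share describes it and supports nothing further. All 37 lay in the upper 50% of genes by mean level, where 5.62% were called. The median change was 0.04, against -0.003 over all genes, and the changes ranged from -0.58 for Trib3 to 0.89 for Edem1. Groups were free of overlap for 12 of the 37 (32.4%), against 22.5% of all genes. Refitting 5 arrays at a time left 1 or 2 members higher and at most 1 lower, and Atf5 and Syvn1 missed the threshold in each of the 6 refits.

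**Figure D1:**
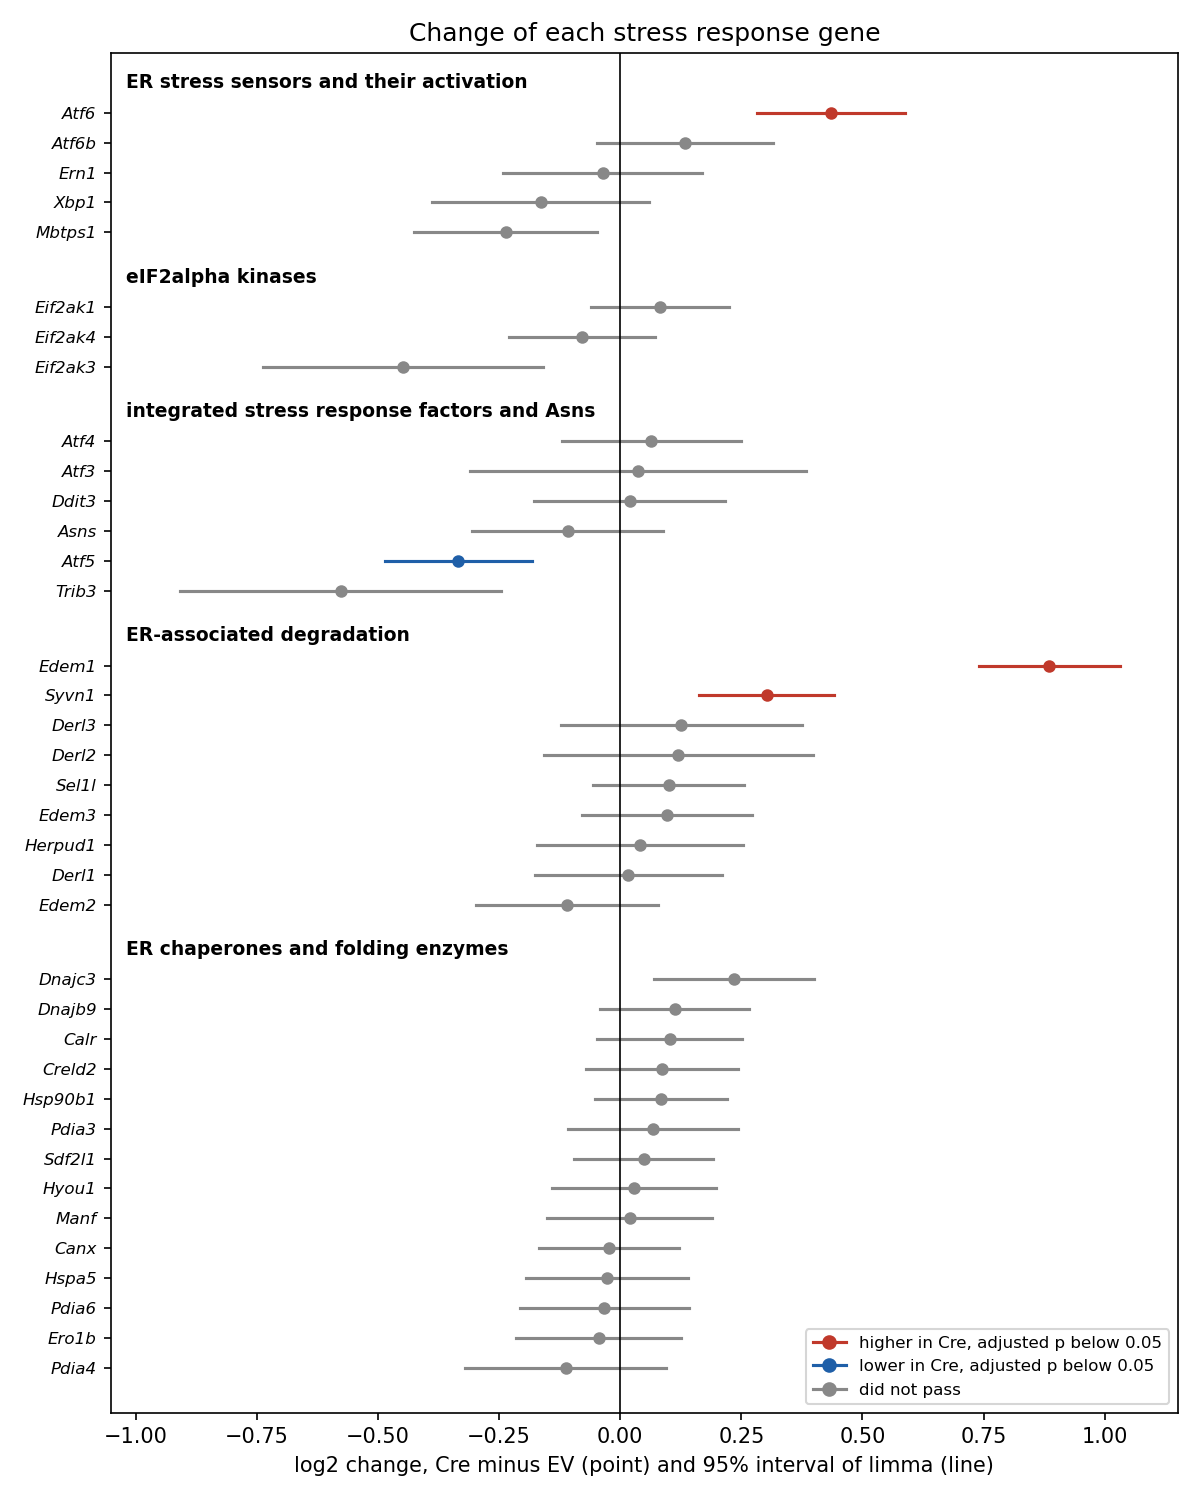
Log2 change, Cre minus EV, of the 37 measured genes (points) with limma's 95% confidence interval (lines), grouped by role and sorted within each group. Edem1, Atf6 and Syvn1 stand to the right of 0 and Atf5 to the left as the genes that passed, and the 14 chaperones and folding enzymes lie between -0.11 and 0.23.

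Among the ER stress sensors and their activators, 1 of 5 measured genes passed (20%, against 3.49% of all genes). Atf6, the membrane-bound precursor of a transcription factor, read 7.91, 7.97 and 8.01 in Cre and 7.55, 7.57 and 7.46 in EV. Every Cre array lay above every EV array, with a change of 0.44 (SE 0.07; limma adjusted p = 0.0129). That call was lost without Cre replicate 2 (0.0566), Cre replicate 3 (0.0546) or EV replicate 3 (0.05). Its paralogue Atf6b averaged 7.44 ± 0.06 in Cre and 7.30 ± 0.11 in EV (SD, n = 3 each), a change of 0.13 that did not pass (adjusted p = 0.476 in limma) and in which the groups overlapped.

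ATF6 is activated in the Golgi by cleavage, first by the site-1 protease, encoded by Mbtps1, and then by the site-2 protease, encoded by Mbtps2. Mbtps1 read 6.76, 6.69 and 6.89 in Cre and 6.96, 7.12 and 6.97 in EV. The Cre arrays were the lower ones without overlap, but the change of -0.24 (SE 0.08) did not pass (limma adjusted p = 0.197). The probe set that Mbtps2 shares with Yy2 averaged 7.16 ± 0.04 in Cre and 7.22 ± 0.11 in EV (SD, n = 3 each), and its signal cannot be divided between these genes.

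The IRE1 branch showed no call. Ern1, which encodes the IRE1alpha kinase and ribonuclease, averaged 5.54 ± 0.13 in Cre and 5.57 ± 0.09 in EV (SD, n = 3 each). Xbp1, whose mRNA IRE1 splices, read 7.29, 6.92 and 7.12 in Cre and 7.29, 7.26 and 7.27 in EV. The EV arrays lay close together, while Cre replicate 2 was the lowest of the 6, and the change of -0.16 had a 95% confidence interval of -0.39 to 0.06. The deposited value is 1 per gene, so spliced and unspliced Xbp1 were not measured apart.

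ERAD held the largest change among the members. Edem1 read 7.97, 7.97 and 8.05 in Cre and 7.07, 7.12 and 7.15 in EV. The gap between the groups was many times the spread within either, with a change of 0.89 (SE 0.06; limma adjusted p = 0.00036), and it passed in every refit on 5 arrays (adjusted p up to 0.00317). Its relatives Edem2 and Edem3, which trim mannose from glycoproteins, differed by -0.11 (SE 0.08) and 0.10 (SE 0.08), and neither passed.

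Syvn1 was the other ERAD gene that rose. It read 9.80, 9.87 and 9.88 in Cre and 9.53, 9.55 and 9.56 in EV. The groups did not overlap, and the change of 0.30 (SE 0.06) passed narrowly (limma adjusted p = 0.0389). In the 6 refits on 5 arrays its adjusted p lay between 0.0898 and 0.135. Sel1l, the partner that stabilises HRD1, differed by 0.10 (95% confidence interval -0.06 to 0.26), and Herpud1, a membrane component of the same ligase complex, by 0.04 (-0.17 to 0.25). The derlins, which belong to the channel through which substrates leave the ER, differed by 0.02 for Derl1, 0.12 for Derl2 and 0.13 for Derl3, with overlap between groups in each. In all, 8 of 9 ERAD members had a positive change, against 9689 of all 19733 genes, and the median of the 9 was 0.10. The 20 further ERAD genes measured did not share this, with 11 positive and 9 negative changes and a median of 0.009. EV replicate 1 was the lowest EV array for 7 of the 9 members (77.8%, against 34.1% of all genes), which raises their changes. It was also the lowest for 14 of the 20 further genes (70%).

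**Figure D2:**
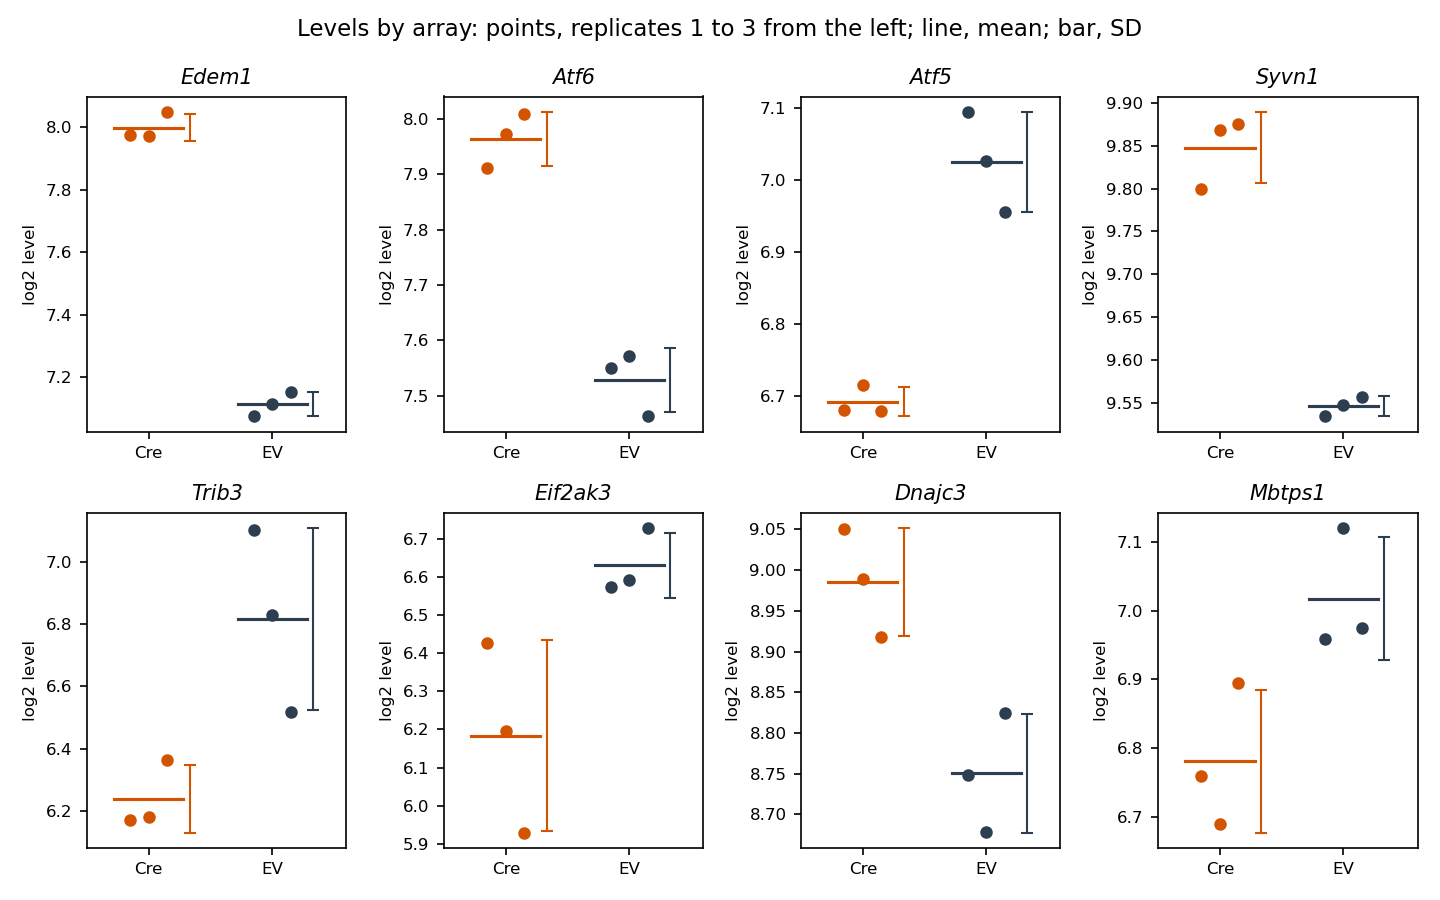
Log2 level in each array of the 8 members with an adjusted p below 0.2, in order of p, with Cre left of EV and an axis of its own for each gene (points, replicates 1 to 3 from the left; line, mean; bar, SD of 3 arrays). Edem1, Atf6, Atf5 and Syvn1 in the top row passed the test. The groups do not overlap in any of the 8 panels, which largely follows from picking the genes by p on these same values.

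The ER chaperones and folding enzymes stayed within narrow limits. None of 14 passed in limma, 1 of them (Dnajc3) had an unadjusted p below 0.05, as did 16.1% of all genes, and the 95% confidence intervals of all 14 lay within 0.40 of no change on the log2 scale. Hspa5, the chaperone BiP that binds and restrains the sensors, read 9.93, 9.89 and 9.94 in Cre and 9.88, 10.06 and 9.90 in EV. The arrays of both groups were interleaved, and the interval of the difference ran from -0.19 to 0.14. Hsp90b1, the ER paralogue of HSP90, averaged 11.22 ± 0.02 in Cre and 11.14 ± 0.01 in EV (SD, n = 3 each). The lectin chaperone Calr averaged 10.25 ± 0.05 in Cre and 10.14 ± 0.05 in EV. For Hsp90b1 and Calr the Cre arrays lay above the EV arrays without overlap, yet the changes of 0.09 and 0.10 did not pass. Canx, the membrane-bound lectin chaperone, differed by -0.02 (95% confidence interval -0.17 to 0.12).

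Dnajc3, a co-chaperone of BiP known as an inhibitor of eIF2alpha kinases, came closest in this group. It read 9.05, 8.99 and 8.92 in Cre and 8.75, 8.68 and 8.82 in EV. All Cre arrays were higher, with a change of 0.23 (SE 0.07; limma adjusted p = 0.144). A second probe set of Dnajc3 listed the same 6 values and was counted once. The other J-domain co-chaperone, Dnajb9, differed by 0.11, and the disulfide isomerases Pdia3, Pdia4 and Pdia6 by 0.07, -0.11 and -0.03. The oxidase Ero1b, which recharges disulfide isomerases, differed by -0.04. Sdf2l1, Creld2, Manf and the BiP exchange factor Hyou1, all known as genes that ER stress raises, differed by 0.02 to 0.09.

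Many of these genes share a promoter element, the ER stress element (CCAAT, a gap of 9 bases, then CCACG), through which ATF6 acts with NF-Y. Promoters from RefSeq (GRCm38.p6; 250 bases before to 50 after each gene's start) were given for 34 of the 38 genes, and not for Atf6, Derl1, Hyou1 and Manf. Searched on both strands, the element was present for 10 of the 34 (29.4%), against 0.137% of 27025 genes in the table. The 10 were Syvn1, Derl3, Hspa5, Hsp90b1, Calr, Canx, Pdia6, Dnajc3, Creld2 and Ero1b. The members were chosen for known roles in this response, so such an excess could be foreseen from the list and supports nothing further. The stretches printed are those of Syvn1, which rose, of Dnajc3, Hspa5, Calr and Pdia6, which did not pass, and of Herpud1, which holds the related element II (ATTGG, 1 base, CCACG), with the fixed bases of each element in capitals. Syvn1 lies at chr19:6046519-6046563 (plus strand), Dnajc3 at chr14:118937814-118937858 (plus), Hspa5 at chr2:34772012-34772056 (plus), Calr at chr8:84847062-84847106 (plus, the gene being on minus), Pdia6 at chr12:17266478-17266522 (plus) and Herpud1 at chr8:94386364-94386400 (plus).
Syvn1: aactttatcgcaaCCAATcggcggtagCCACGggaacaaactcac
Dnajc3: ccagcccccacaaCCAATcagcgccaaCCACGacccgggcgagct
Hspa5: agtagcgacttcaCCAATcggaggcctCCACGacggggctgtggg
Calr: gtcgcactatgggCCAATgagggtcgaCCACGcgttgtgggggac
Pdia6: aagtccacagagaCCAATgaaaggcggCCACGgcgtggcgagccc
Herpud1: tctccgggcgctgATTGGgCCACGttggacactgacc

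The element in Syvn1 ends 25 bases before the gene's start, and the one in Hspa5 46 bases before it. The 10 members with the element had a median change of 0.09, and their changes ranged from -0.04 for Ero1b to 0.30 for Syvn1, the 1 that passed. Outside the members, 11 tested genes held the element, with a median change of 0.03. None of the 11 passed in limma, and 1 had an unadjusted p below 0.05. The element was not found in the promoter window given for Edem1, the gene with the largest change. The unfolded protein response element TGACGTGG, a binding sequence of ATF6 and XBP1, was present for 0 of the 34 members and 0.714% of all genes. Among 143 other tested genes that held it, 4 rose and 2 fell (4.2%, against 3.49% of all genes). Element II, added to the search after the results were known, was present for 0.0444% of genes.

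The kinases of eIF2alpha showed no call in limma, and 1 of the 3, Eif2ak3, had an unadjusted p below 0.05. Eif2ak3, which encodes PERK, the ER stress kinase, read 6.43, 6.20 and 5.93 in Cre and 6.57, 6.59 and 6.73 in EV. All Cre arrays were lower, but they were widely spread, with an SD of 0.25 in Cre and 0.09 in EV, and the change of -0.45 (SE 0.12) did not pass (limma adjusted p = 0.118). Its 95% confidence interval, -0.74 to -0.16, was among the widest of the members. Eif2ak1, the heme-regulated kinase, averaged 7.44 ± 0.04 in Cre and 7.35 ± 0.03 in EV (SD, n = 3 each), a change of 0.08. Eif2ak4, the amino acid-sensing kinase GCN2, averaged 6.59 ± 0.02 in Cre and 6.67 ± 0.07 in EV, a change of -0.08.

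Downstream of these kinases, Atf5 was lower in Cre while Atf4 and Ddit3 differed little. Atf4, the central transcription factor, read 9.76, 9.77 and 9.84 in Cre and 9.78, 9.81 and 9.59 in EV. Ddit3, the death-linked factor CHOP, read 7.76, 7.91 and 7.87 in Cre and 7.97, 7.80 and 7.71 in EV. The groups overlapped in both genes, with changes of 0.06 (95% confidence interval -0.12 to 0.25) and 0.02 (-0.18 to 0.22). These are mRNA levels, and ATF4 is controlled largely at translation, which the arrays do not measure. Atf3, a stress-induced factor, averaged 6.46 ± 0.28 in Cre and 6.42 ± 0.17 in EV (SD, n = 3 each), and its wide spread gave an interval of -0.31 to 0.38.

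Atf5 read 6.68, 6.72 and 6.68 in Cre and 7.10, 7.03 and 6.96 in EV. The Cre arrays were tightly grouped below the EV arrays, with a change of -0.33 (SE 0.06; limma adjusted p = 0.0346). In the 6 refits its adjusted p lay between 0.0603 and 0.119, and the call was also lost after a second quantile normalization (0.0541). Trib3, a pseudokinase that ATF4 and CHOP raise, had the most negative change of the members. It read 6.17, 6.18 and 6.37 in Cre and 7.10, 6.83 and 6.52 in EV, without overlap, and the change of -0.58 (SE 0.14) did not pass (limma adjusted p = 0.0819). Asns, the asparagine synthetase that ATF4 drives, read 10.35, 10.38 and 10.43 in Cre and 10.59, 10.57 and 10.33 in EV, a change of -0.11 with EV replicate 3 below every Cre array.

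EV replicate 3 gave the lowest EV value for all 6 genes of this arm (Atf3, Atf4, Atf5, Ddit3, Trib3 and Asns), against 28.3% of all genes tested. In Cre, replicate 1 was the lowest for 5 of the 6, against 33% of all genes. Without EV replicate 3 the change of Trib3 was -0.73 and passed (limma adjusted p = 0.0272), while that of Atf5 was -0.37 (0.0603), of Asns -0.19 (0.296) and of Atf4 -0.01 (0.985). Trib3 passed in only this 1 of the 6 refits, and its limma adjusted p reached 0.223 without Cre replicate 2.

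The C/EBP-ATF element, through which ATF4 acts (searched as TGATG, 1 base, AA, on both strands), was present in the promoter windows of Atf3, Trib3, Asns and Herpud1, 4 of 34 members (11.8%), against 4.51% of all genes. This share too could be foreseen from the known roles for which the members were chosen. The stretch of Asns at chr6:7693214-7693243 (minus strand) and that of Atf3 at chr1:191183425-191183454 (plus, the gene being on minus) are printed as examples of the element in this arm, with its fixed bases in capitals.
Asns: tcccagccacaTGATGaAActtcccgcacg
Atf3: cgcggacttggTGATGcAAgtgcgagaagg

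None of the 4 genes passed, and their median change was -0.04. The element ends 15 bases before the start of Asns and 102 before that of Atf3. Among 559 other tested genes that held the element, 6 rose and 4 fell (1.79%, against 3.49% of all genes), with a median change of -0.01.

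Of 120 further genes of the same pathways, 113 were measured, with a median change of -0.05. Of these 113, 4 rose and 7 fell (9.73% called, against 3.49% of all genes). By mean level, 104 of the 113 lay above the median gene, where 5.62% of genes were called. These lists too were drawn up with earlier results of these data known, so the share describes them and supports nothing further. The list of amino acid transport and synthesis genes linked to ATF4 held 3 of the falls and no rise among 16 measured (18.8% called). Slc7a3, a transporter of cationic amino acids, read 4.71, 4.71 and 4.94 in Cre and 6.56, 6.40 and 6.02 in EV. It was lower in every Cre array, by 2.90-fold (limma adjusted p = 0.00131). Slc1a5, the glutamine transporter ASCT2, read 10.12, 10.16 and 10.21 in Cre and 10.78, 10.88 and 10.91 in EV, 1.62-fold lower (limma adjusted p = 0.00172). Cth, which makes cysteine from cystathionine, averaged 7.35 ± 0.07 in Cre and 8.04 ± 0.20 in EV (SD, n = 3 each), 1.61-fold lower (limma adjusted p = 0.0139). Its call was lost without Cre replicate 2 (0.0621) or 3 (0.0592), and also without EV replicate 1 (0.0542) or 2 (0.0574). Negative changes were found for 15 of the 16 genes (against 10044 of all 19733), with a median of -0.17. EV replicate 3 was the lowest EV array for 13 of the 16 (81.2%), and Slc7a3, Slc1a5 and Cth also passed without it.

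**Figure D3:**
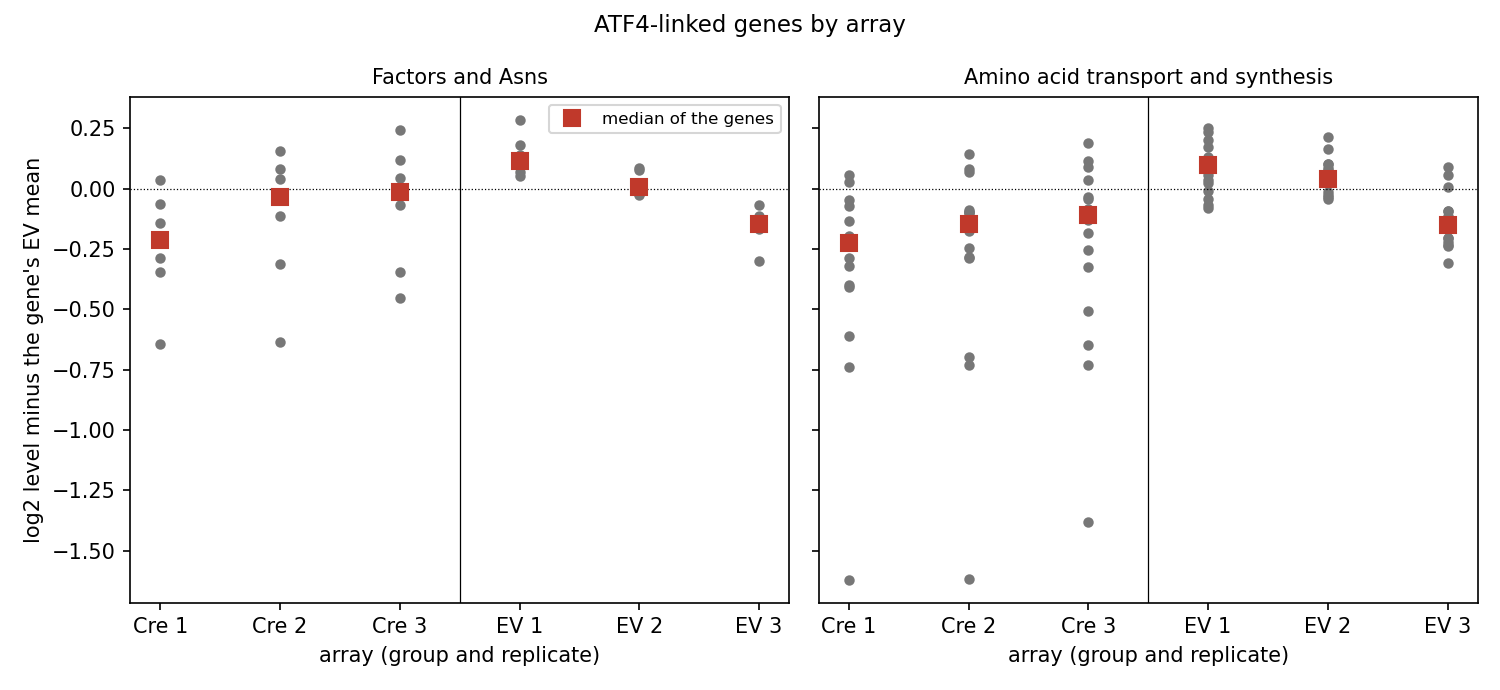
Log2 level of each gene minus its own EV mean in the 6 arrays, for Atf3, Atf4, Atf5, Ddit3, Trib3 and Asns (left) and the 16 genes of amino acid transport and synthesis (right). Grey points are genes and red squares their median, which in the right panel lies between -0.23 and -0.11 in Cre and at 0.10, 0.04 and -0.15 in EV replicates 1, 2 and 3.

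Of 20 further genes that control the integrated stress response or respond to it, 1 rose and 1 fell (10%, against 3.49% of all genes). Ddit4, an inhibitor of mTORC1, averaged 7.53 ± 0.06 in Cre and 7.04 ± 0.14 in EV (SD, n = 3 each), a 1.41-fold rise (limma adjusted p = 0.0221). It passed in only 1 of the 6 refits, the one without EV replicate 1, with adjusted p up to 0.0897 in the others. Stc2, a secreted glycoprotein, averaged 6.22 ± 0.17 in Cre and 6.97 ± 0.11 in EV (SD, n = 3 each), 1.68-fold lower (limma adjusted p = 0.00791), and passed in all 6 refits. None of 16 cytosolic tRNA synthetases passed in limma, 4 (25%) had an unadjusted p below 0.05, against 16.1% of all genes, and their median change was -0.09.

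Among 41 further genes of ER folding and translocation, 2 rose and 3 fell (12.2% called, against 3.49% of all genes). Changes in both directions were larger than that of Edem1. Mzb1, an ER protein of B cells that helps antibody assembly, read 11.29, 11.22 and 11.27 in Cre and 9.96, 10.24 and 9.86 in EV. This was a 2.37-fold rise (limma adjusted p = 0.000732). Fkbp11, an ER prolyl isomerase, read 4.97, 5.07 and 4.99 in Cre and 5.88, 6.30 and 6.27 in EV, a 2.20-fold fall (limma adjusted p = 0.00216). Mzb1 and Fkbp11 passed in all 6 refits on 5 arrays.

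Ero1a, the relative of the oxidase Ero1b, averaged 7.71 ± 0.16 in Cre and 8.23 ± 0.05 in EV (SD, n = 3 each), 1.43-fold lower (limma adjusted p = 0.0249). Spcs2, a signal peptidase subunit, averaged 8.90 ± 0.09 in Cre and 9.39 ± 0.10 in EV, 1.40-fold lower (limma adjusted p = 0.0178). Serp1, which stabilises proteins at the translocon under stress, averaged 10.74 ± 0.05 in Cre and 10.39 ± 0.04 in EV, a 1.27-fold rise (limma adjusted p = 0.0303). Of 20 further ERAD genes 1 passed (5%, against 3.49% of all genes), Selenos, a selenoprotein of the ERAD complex. It averaged 8.23 ± 0.05 in Cre and 7.91 ± 0.06 in EV, a 1.24-fold rise (limma adjusted p = 0.0474). These 4 calls were fragile. In the 6 refits, Serp1 and Selenos passed in 0 (limma adjusted p up to 0.114 and 0.156), Ero1a only without Cre replicate 2 (otherwise up to 0.0911), and Spcs2 only without Cre replicate 3 or EV replicate 3 (otherwise up to 0.0698).

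**Figure D4:**
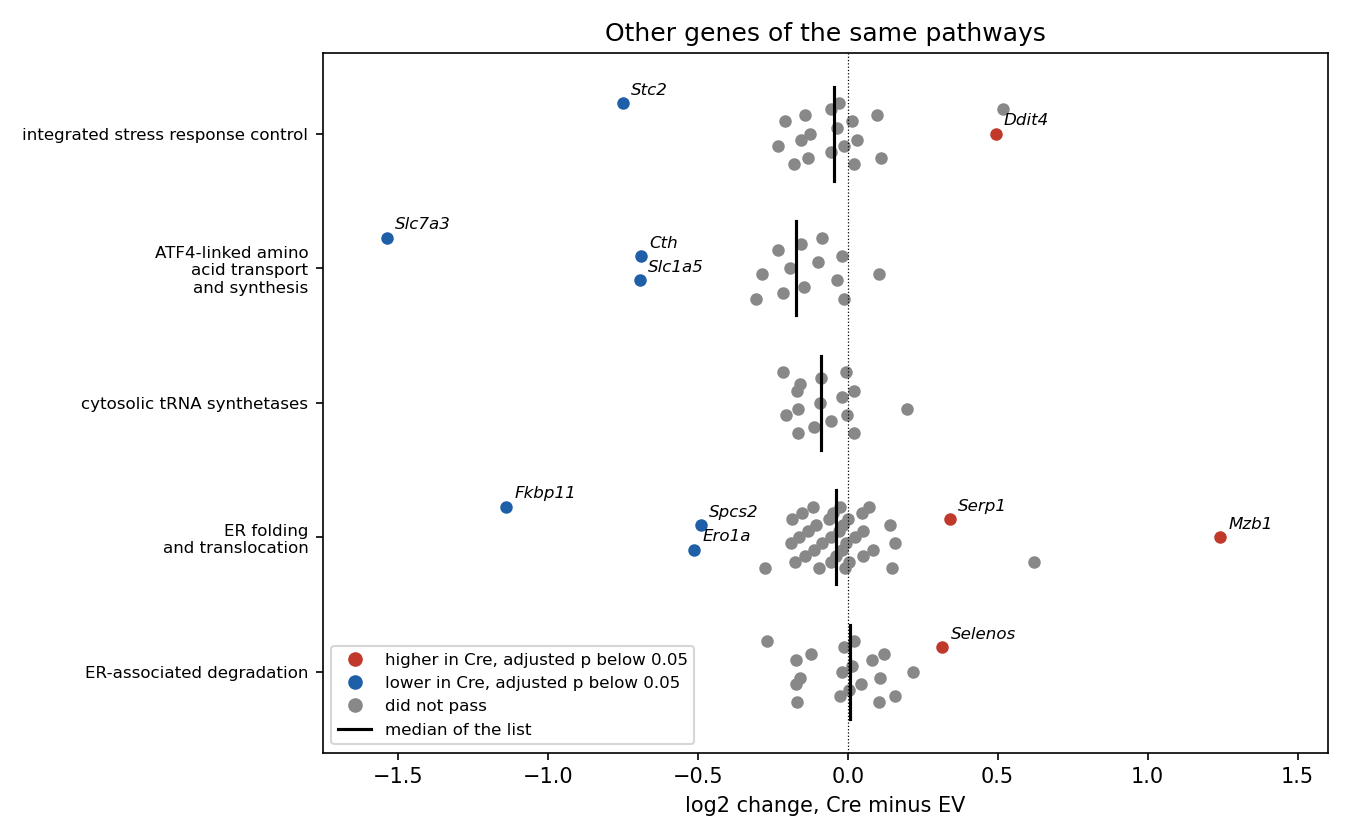
Log2 change, Cre minus EV, of 113 further genes of the same pathways in 5 lists (points, with a vertical offset for legibility), with the median of each list as a black line. The 4 named red genes rose and the 7 named blue genes fell, and the median of the amino acid list, -0.17, is the lowest of the 5.

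The cells were checked against markers. For 13 measured pre-B and B lineage markers, the mean level per array was 10.22 to 10.36 in Cre and 10.62 to 10.66 in EV. In limma 0 of them rose and 3 fell, 23.1% called against 3.49% of all genes. An unadjusted limma p below 0.05 was found for 6 (46.2%, against 16.1% of all genes). While the mean was lower in every Cre array, the signs were split, with 6 changes positive and 7 negative and a median of -0.014. The 3 that fell were Rag1 and Rag2, which encode the antigen receptor recombinase, and Dntt, which adds bases at the joints. Rag1 averaged 6.72 ± 0.25 in Cre and 8.82 ± 0.08 in EV (SD, n = 3 each), a change of -2.09 (limma adjusted p = 0.000155). The changes of Rag2 and Dntt were -1.84 (0.00469) and -0.48 (0.03). For myeloid, erythroid and stromal markers the mean level per array was 3.86 to 4.78 in all arrays, and 0 of these 19 passed in limma (unadjusted p below 0.05 for 2). T cell markers had a mean of 5.09 to 5.24 in Cre and 5.22 to 5.32 in EV. Of these, 1 of 7 passed (14.3%), Cd2, which B lineage cells also express. Because XBP1 and several ER genes are known from plasma cells, 10 plasma cell markers, Fkbp11 among them, were set beside these results. Their mean was 6.28 to 6.33 in Cre and 6.03 to 6.12 in EV. In limma 3 of them rose and 1 fell, 40% called against 3.49% of all genes, with a median change of 0.07. Ell2 rose by 1.31, while Prdm1, which defines plasma cells, read 3.58 to 3.71 in Cre and 3.62 to 3.76 in EV, below the lower quartile of gene means (3.96). In such bulk samples a shift in cell makeup and a shift in RNA per cell cannot be told apart, and the part of these markers in the changes above was not tested.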

How the data were processed

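RNA from 3 Cre and 3 EV samples was hybridised as biotin-labelled cRNA to Affymetrix arrays, per the labels' protocols. The deposited values are log2 levels made by the authors with RMA, per the submitters' processing notes. As a method, RMA corrects background, normalizes quantiles and summarises probes. The sources used here give no version or annotation for it. Quantile normalization makes every change relative to the other genes.

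Of 25006 probe sets, 21467 had 1 gene symbol, 1521 several and 2018 none in the platform annotation. Probe sets with 1 symbol were kept, and the one with the highest mean over 6 arrays was taken for 931 genes with several, which left 19733 genes. Groups came from sample titles.

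All genes were fitted with limma 3.58.1 in R 4.3.3 (lmFit, eBayes, no block, no filter), with Benjamini-Hochberg adjustment. Tables and plots used Python 3.11.15, pandas 2.3.3 and matplotlib 3.10.9. The fit was tested on simulated data. Motifs were searched in RefSeq promoters.

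The members and lists were chosen with earlier results of these data known. All members could be named, with array values for those that passed or had an adjusted p below 0.2. Further genes were Ppp2r1a, list genes past the threshold (at most 12 by smallest p) and up to 3 markers per list. The array values of other members, the array extremes and element II were added after seeing values. Alternatives were the repeat block, renormalization, filters, eBayes settings, array weights, probe averaging and leaving out each array.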

Additional observations from a re-analysis of the deposited data

How the results depend on the processing

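Of the genes followed singly (members, named further genes and Ppp2r1a), none that passed changed direction under the 14 alternatives, and Edem1 passed in each. With the replicate block, 157 of all genes rose and 268 fell (267 and 422 without it), 1 member rose and 0 fell (3 and 1), and 1 further pathway gene rose and 6 fell (4 and 7). The replicate block ended the calls of Atf6 (adjusted p = 0.058), Syvn1 (0.116), Atf5 (0.102), Spcs2 (0.0753), Ddit4 (0.0622), Serp1 (0.0874) and Selenos (0.138) in limma. The sources used here do not say whether same-numbered samples were made together. Deviations of same-numbered arrays correlated at 0.01, -0.01 and 0.03, and 2 of 6 arrays correlated best with their own number. These values show no shared deviation over all genes, but they do not tell how the samples were made. After a second quantile normalization 0 members fell and the members' median change was 0.056 (0.037 as deposited). Leaving out the lowest 50% of genes changed the number of genes adjusted over and also the limma fit, which was run again. There, 537 of the genes left rose and 758 fell, 3 members fell and 11 further genes fell (7 before). With trend and robust eBayes settings 640 rose and 918 fell, 3 members fell, and 9 further genes rose and 15 fell. Both settings added Trib3 (limma adjusted p = 0.0249 without the lowest 50%, 0.00861 with trend), Eif2ak3 (0.0378 and 0.0228) and, among the rises, Dnajc3 (0.0397 and 0.0142). Leaving out each array in turn gave 138 to 169 higher and 215 to 270 lower over all genes, 1 to 2 members higher and 0 to 1 lower, 1 to 2 further genes higher and 4 to 6 lower, and a median of 0.005 to 0.063. These refits have fewer samples; other causes were not tested. Of 33 members that did not pass, 30 had a 95% confidence interval within 0.4 of no change, and Trib3 had the widest bound, 0.91.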
